A study of Homo sapiens with 12 samples.

Results

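PRDM1 alpha overexpression was compared with GFP overexpression in RKO, an established line of human colon carcinoma cells, across all genes with enough counts to be tested. The comparison takes the 2 libraries whose titles name the alpha form of PRDM1 (RKO-PRDM1α-OE) and the 2 whose titles name GFP (RKO-GFP-OE), 4 of the 12 libraries of the series. The series was made to ask what PRDM1 does in colon cancer cells. The remaining 8 libraries, 2 each, come from RKO cells overexpressing the beta form (RKO-PRDM1β-OE), from the CRISPR/Cas9 knockout derivatives KO2 and KO5, and from wild-type cells, and are drawn on only as yardsticks. The alpha and GFP cells shared the parental line and the growth medium, McCoy's 5A with serum, and neither carried a knockout. The labels name no vector, promoter, clone or time since the gene was introduced. Nor is it stated that paired libraries came from different cultures, and p-values therefore cover the spread among these libraries alone, which may be technical.

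PRDM1, also called BLIMP1, is a zinc finger protein that binds DNA and recruits corepressors and histone-modifying enzymes. It is best known for shutting down the B cell programme as B cells become plasma cells. In mouse it is also required for the development of the epidermal barrier, and it holds the suckling-type programme of the neonatal intestine. The sites it binds resemble those of the interferon regulatory factors, and overlapping sites have been described at antigen presentation genes.

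PRDM1 itself came to 11475 and 9681 counts in the alpha libraries, or 487 and 480.1 CPM (counts per 1000000 gene counts of the library), against 2 and 6 counts in the GFP libraries. The alpha to GFP ratio of the CPM was 3200.5, with a 95% interval of 1624 to 7414 that covers counting error only. The transcript was thus high in both alpha libraries and close to the floor of 3 counts in both GFP libraries, and counts per gene do not show which form of PRDM1 was read. Gene counts per library were 23564364 and 20165608 with alpha and 25414550 and 27509340 with GFP, and 3 counts, the limit allowed by a count of 0, equal 0.127 and 0.149 CPM in the alpha libraries and 0.118 and 0.109 CPM in the GFP libraries. Of 12 colon epithelium markers 9 stayed under 1 CPM in all 4 libraries, and the rest were KRT8, KRT18 and CDX2. The epithelial keratin gene KRT8 stood at 496 and 493 CPM with alpha and at 588 and 592 CPM with GFP. KRT18 stood at 312 and 311 CPM with alpha and 299 and 323 CPM with GFP. Of the other colon markers CDX2 stood at 14.7 and 15.8 CPM with alpha and 14.6 and 13.5 CPM with GFP, while EPCAM, KRT20, CDH1, CDH17 and CDX1 had 0 counts in all 4 libraries. The summed level of the 12 colon epithelium markers was 823 and 820 CPM with alpha and 902 and 929 CPM with GFP. KRT8 and KRT18 made up most of it. Fibroblast and plasma cell markers, given below, were in part expressed: of 10 and 8 listed, 7 and 5 stayed under 1 CPM in all 4 libraries. Of 9 leukocyte markers 8 stayed under 1 CPM in all 4 libraries, PTPRC among them at 0. The exception was the lysosomal protein gene CD68, at 26.8 and 29.8 CPM with alpha and 19.9 and 18.3 CPM with GFP. All 6 endothelial markers stayed under 1 CPM.

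The tables list 26364 genes, of which 12858 passed the filter on low counts and were tested. Changes are given as log2 alpha over GFP ± standard error with n = 2 libraries in each group, and adjusted p-values come from edgeR's quasi-likelihood test with Benjamini-Hochberg adjustment over all genes tested. With alpha 2729 genes rose and 2093 fell, 21.2% and 16.3% of those tested. Most of these changes were small. Of the genes that rose, 48.7% changed by less than 0.25 on the log2 scale, and the median size was 0.26 for the rises and 0.23 for the falls. At least 2-fold changes were seen for 221 genes that rose, 1.72% of those tested, and 139 that fell, 1.08%. Beyond 4 on the log2 scale stood 35 rises and 4 falls. By level, 759 of the 2505 genes between 100 and 1000 CPM in the higher group rose and 583 fell, while of the 85 genes over 1000 CPM 13 rose and 37 fell.

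**Figure D1:**
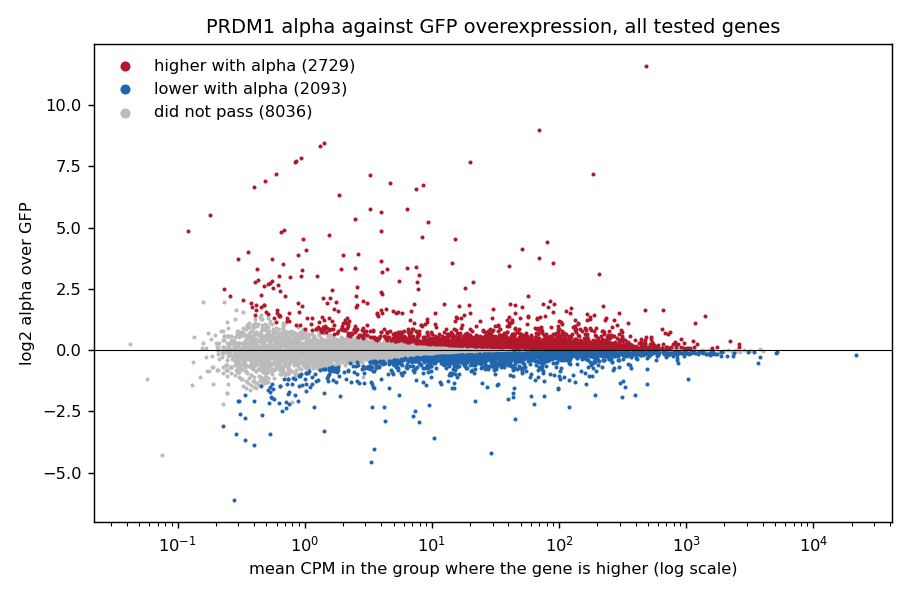
Log2 change of each of the 12858 tested genes, alpha over GFP (vertical axis), against its mean CPM in the group where it was higher (horizontal axis, log scale), n = 2 libraries each; genes with an adjusted p under 0.05 are coloured by direction and grey genes did not pass. The 35 rises beyond 4 belong to genes that were low with GFP, while of the 85 genes over 1000 CPM 13 were higher and 37 lower.

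The GFP libraries themselves differed from wild type, which sets a scale for these counts. Against wild type, 1133 genes were higher with GFP (8.81% of those tested) and 1311 lower (10.2%), and at least 2-fold changes were rare there, with 6 genes higher with GFP (0.0467%) and 12 lower (0.0933%). Set against wild type in place of GFP, alpha gave 2836 genes higher (22.1%) and 2476 lower (19.3%). Of the 221 genes at least 2-fold higher with alpha than with GFP, 204 were also called higher against wild type, and both alpha libraries of 202 lay above every one of the 8 libraries without PRDM1 overexpression. Of the 139 genes at least 2-fold lower, 123 were also called lower against wild type and 104 lay below all 8. Over all tested genes both alpha libraries lay above all 8 for 17.2% and below all 8 for 13.5%. Of the 2729 rises 1912 were also called higher against wild type, 794 did not pass there and 23 turned into falls. Of the 2093 falls 1474 were also called lower, 618 did not pass and 1 turned into a rise. These counts share the alpha libraries, so they show which calls rest on the choice of control and are not independent support.

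The largest rises included genes of secreted proteins and of intracellular enzymes. MMP3, a matrix metalloproteinase that cleaves several matrix proteins, stood at 68.3 and 69.9 CPM with alpha, against 0.118 and 0.145 CPM with GFP. SERPINB7, a serine protease inhibitor of the clade B serpins, stood at 19.6 and 20.5 CPM with alpha and 0.0787 and 0.109 CPM with GFP. CPA4, a carboxypeptidase, stood at 188 and 182 CPM with alpha and 1.495 and 1.05 CPM with GFP. In all 3 genes the alpha libraries were close to each other and far above both GFP libraries. The changes were 8.99 ± 0.60 for MMP3 (adjusted p = 4.54e-36), 7.67 ± 0.67 for SERPINB7 (adjusted p = 2.21e-30) and 7.19 ± 0.18 for CPA4 (adjusted p = 1.51e-47). The first pair rests on few GFP counts, 7 for MMP3 and 5 for SERPINB7, and the ratio of MMP3 has a 95% counting interval of 253 to 1299.8. The collagenase gene MMP1 reached 8.91 and 8.18 CPM with alpha and 0.118 and 0.0364 CPM with GFP, and lies next to MMP3 among tested genes on chromosome 11. The fatty acid CoA ligase ACSL5 stood at 7.94 and 7.09 CPM with alpha and 0.118 and 0.0364 CPM with GFP. HKDC1, a hexokinase domain protein, stood at 10.02 and 8.68 CPM with alpha and 0.275 and 0.218 CPM with GFP. All 3 passed the test with changes of 6.76, 6.57 and 5.24. Leaving out a single GFP library left all these calls and moved the change of MMP1 between 6.13 and 7.73 and that of ACSL5 between 5.95 and 7.55.

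A co-receptor, its ligand and several signalling genes were among the other large rises. NRP1, a co-receptor for semaphorins and VEGF, stood at 80.04 and 80.04 CPM with alpha and 3.58 and 3.93 CPM with GFP, a rise of 4.42 ± 0.11. Its ligand gene SEMA3A, a repulsive guidance factor, stood at 40.7 and 40.1 CPM with alpha and 4.17 and 3.31 CPM with GFP and rose by 3.44 ± 0.12. Ligand and co-receptor therefore rose in the same libraries. PRKG1, a cGMP-dependent kinase, rose by 4.62 and RGS2, which shortens G protein signals, rose by 3.76, the second from a level that both groups expressed (66.9 and 72.7 CPM with alpha and 5.08 and 5.23 CPM with GFP). RAB27B, a small GTPase of secretory vesicles, stood at 15.02 and 15.4 CPM with alpha and 0.551 and 0.763 CPM with GFP. PRSS22, a serine protease, rose by 3.56 ± 0.21. The change of PRKG1 was 5.51 without GFP replicate 1 and 4.03 without GFP replicate 2.

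**Figure D2:**
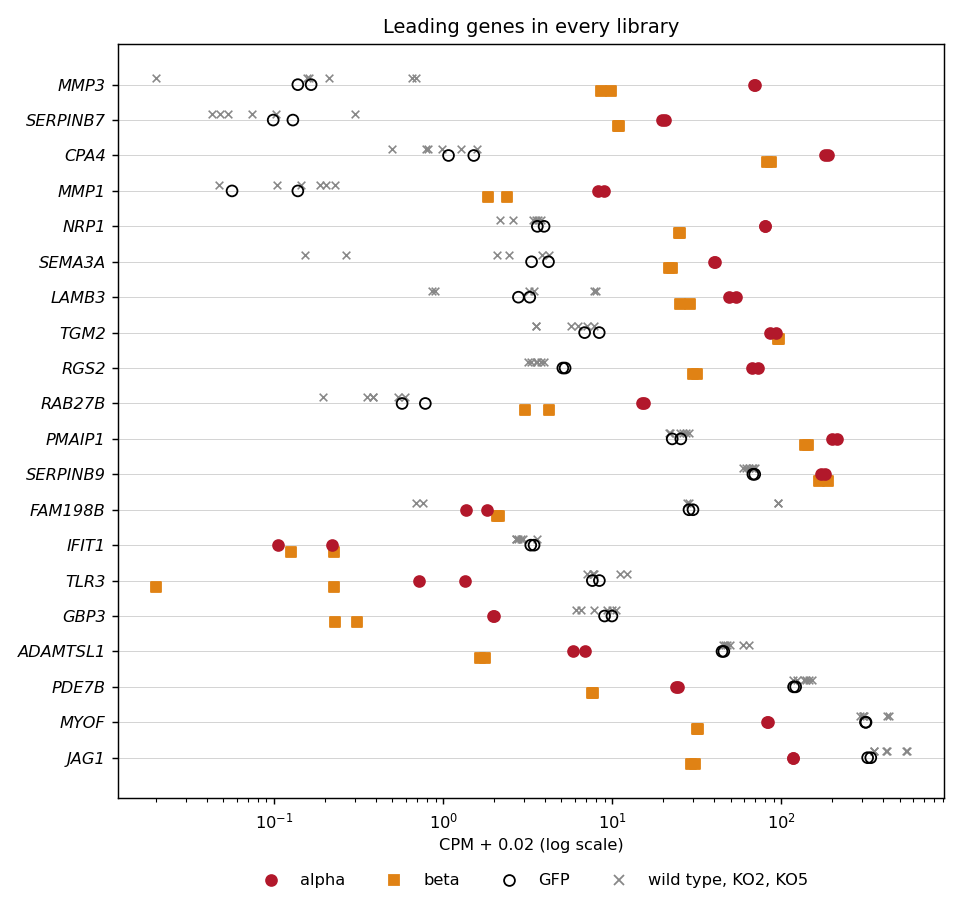
CPM of the leading genes in every library (horizontal axis, log scale, 0.02 CPM added so that 0 can be drawn), with 1 row per gene; filled circles are the 2 alpha libraries, squares the 2 beta libraries, open circles the 2 GFP libraries and crosses the 6 wild-type and knockout libraries. MMP3 stands at 68.3 and 69.9 CPM with alpha and at 0.118 and 0.145 CPM with GFP, and the crosses of FAM198B lie both left of the alpha libraries and right of the GFP libraries.

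Counting from the silent end, 21 genes had at most 10 counts in the GFP libraries together and a mean of at least 1 CPM with alpha. Besides PRDM1 they include matrix and cell adhesion genes: POSTN (periostin), NID1 (nidogen, a basement membrane linker), FBN2 (fibrillin), COL5A1 (a fibrillar collagen chain), ADAM12 (a metalloprotease) and FERMT2 (kindlin, an integrin activator). ATP8A2, a phospholipid flippase, had 63 counts with alpha and 0 with GFP, and TRPC4, a cation channel, had 57 and 0. Against a floor of 3 counts over the GFP group they were at least 25.4-fold and 22.99-fold higher. In the opposite direction 4 genes had at most 10 counts with alpha and at least 1 CPM with GFP: IFIT1 and IFIT2, which bind foreign RNA, KIF5C, a kinesin motor, and TRIM55, a muscle RING finger protein. IFIT1 had 6 counts with alpha and 177 with GFP, and KIF5C had 9 and 185. A gene with so few GFP counts could be called as a rise but hardly as a fall, and some of the 21 are members of the lists counted below. Both groups of genes lie at the low end of the range, where a few counts set the size of a change. The change of ADAM12, for example, was 9.97 without GFP replicate 1 and 4.63 without GFP replicate 2, that of NID1 8.86 and 5.42. That of KIF5C was -5.08 without alpha replicate 1, that of IFIT1 -5.23 without alpha replicate 2, and that of TRIM55 -4.73 and -2.70 without alpha replicate 1 and 2.

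Among proteases the metalloproteinases MMP3, MMP1 and ADAM12 rose, from 7, 4 and 4 counts in the GFP libraries together. From so few counts a fall could hardly have been called. Of 17 tested metalloproteinase and ADAM family genes, 6 rose and 2 fell, with a median change of 0.10 (0.03 with the GC trend removed) beside 0.01 over all genes. Among the abundant members ADAM9, a membrane sheddase, rose by 0.45 ± 0.04 and MMP14, a membrane-bound metalloproteinase, by 0.30 ± 0.06, or 0.19 against wild type. ADAMTSL1, a secreted ADAMTS-like protein without protease activity, stood at 6.87 and 5.85 CPM with alpha and 45.6 and 44.5 CPM with GFP and fell by 2.81 ± 0.10. MMP2 and MMP9 had 0 counts in all 4 libraries. Of 16 protease inhibitor genes 12 rose and 1 fell, with a median of 0.47. SERPINB7, among those that rose, had 5 counts in the GFP libraries together, so a fall could hardly have been called. Beside the counts of these protease and inhibitor lists, 21.2% of all tested genes rose and 16.3% fell. SERPINB9, the inhibitor of granzyme B, stood at 180.1 and 170.5 CPM with alpha and 67.8 and 69.5 CPM with GFP and rose by 1.36 ± 0.05. TFPI, which blocks the tissue factor pathway, rose by 1.52, and the collagen chaperone gene SERPINH1 rose by 0.58. SPINT2, a Kunitz inhibitor, was the 1 member that fell. Of 12 plasminogen and coagulation genes 6 rose and 1 fell: PLAUR, the urokinase receptor, rose by 0.92 ± 0.06, and PLAU, urokinase itself, fell by 0.39 ± 0.11. SPINT2 did not pass without GFP replicate 1 (-0.55), without alpha replicate 1 (-0.43) or by the DESeq2 Wald test (-0.67), nor PLAU without alpha replicate 2 (-0.29).

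Of 33 tested collagen, laminin and other matrix genes, 16 rose and 0 fell, with a median change of 0.23, or 0.11 with the GC trend removed and 0.09 against wild type. Of the rises, NID1, POSTN, FBN2 and COL5A1 started from 1, 3, 3 and 8 counts with GFP, where a fall could hardly have been called. Beside the matrix and adhesion counts, 21.2% of all tested genes rose and 16.3% fell. LAMB3, a chain of the laminin that anchors epithelia, stood at 54.2 and 49.1 CPM with alpha and 3.23 and 2.76 CPM with GFP, a rise of 4.12 ± 0.13. LAMA3, the usual alpha chain of that laminin, had 0 counts in all 4 libraries. Another laminin chain, LAMA1, stood at 20.4 and 21.5 CPM with alpha and 3.58 and 2.54 CPM with GFP and rose by 2.79 ± 0.14. COL13A1, a transmembrane collagen, rose by 1.81, and the abundant COL6A1 by 0.45, or 0.27 against wild type. Of 16 integrin and adhesion receptor genes 7 rose and 1 fell. ITGA6, a laminin receptor chain, stood at 203 and 189 CPM with alpha and 104 and 109 CPM with GFP and rose by 0.89 ± 0.04, while ALCAM fell by 0.57. The sum of 10 fibroblast markers was 15.4 and 16.2 CPM with alpha and 9.92 and 9.41 CPM with GFP. COL1A1 and POSTN make up most of it with alpha, and POSTN is also counted among the matrix genes above. The sum is therefore not separate from that list. The markers DCN, THY1 and COL1A2 were at 0 in all 4 libraries. PDGFRB, another of them, stood at 2.25 and 2.78 CPM with alpha and 3.54 and 3.31 CPM with GFP and fell by 0.45, a call lost by the DESeq2 Wald test (-0.45) and without alpha replicate 1 (-0.30), GFP replicate 1 (-0.40) or GFP replicate 2 (-0.51). In bulk RNA fewer cells of a type and less RNA per cell cannot be told apart. Without GFP replicate 2 there was 1 matrix gene that fell, and 2 integrin and adhesion genes fell, and against wild type the counts were the same 1 and 2.

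PRDM1 is known in mouse for a role in the epidermis. Of 18 tested genes of the cornified envelope and stratified epithelium 10 rose and 2 fell, with a median of 0.25. Over all tested genes 21.2% rose and 16.3% fell, the yardstick for this and the intestinal lists. The genes with the largest changes were crosslinking and modifying enzymes. TGM2, a transglutaminase that crosslinks proteins in many tissues, stood at 93.4 and 85.1 CPM with alpha and 8.34 and 6.83 CPM with GFP and rose by 3.57 ± 0.09. The peptidylarginine deiminases PADI1 and PADI3, which convert arginine to citrulline, stood at 7.002 and 5.65 CPM and 3.82 and 4.17 CPM with alpha, against 0.157 and 0.0727 CPM and 0.197 and 0.0727 CPM with GFP. These neighbours on chromosome 1 rose by 5.77 and 4.88, from 6 and 7 counts with GFP, where a fall could hardly have been called. KRT80, an epithelial keratin, stood at 291 and 299.9 CPM with alpha and 103 and 103 CPM with GFP, and KRT81, a hair keratin, rose by 1.87. TGM1, the main transglutaminase of the epidermis, fell by 0.78 ± 0.27. Structural proteins of the envelope stayed silent, with 0 counts for LOR and FLG and 1 GFP count for IVL in the 4 libraries. Of 15 intestinal transcription factor genes tested 1 rose and 1 fell, namely KLF5 and SOX4, with changes of 0.29 and -0.68. Of 6 tested enterocyte genes of the suckling and weaning switch 1 rose and 1 fell, 16.7% each and so near the shares of all genes. TGM1 did not pass without GFP replicate 1 (-0.69), which left 0 falls among the epidermal genes, or without alpha replicate 2 (-0.62) or by the DESeq2 Wald test (-0.80), each of which left 1. Without GFP replicate 1 there were 2 intestinal factors that rose, and against wild type 4 intestinal factors and 3 enterocyte genes fell.

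Several genes that detect viral RNA, answer interferon and present antigen fell with alpha, while others of the same lists rose or did not pass. TLR3, the endosomal receptor for double-stranded RNA, stood at 1.32 and 0.694 CPM with alpha and 7.59 and 8.36 CPM with GFP, and fell by 2.95 ± 0.25 (adjusted p = 5.58e-17). The cytosolic RNA sensors DDX58 (RIG-I) and IFIH1 (MDA5) fell by 0.95 ± 0.17 and 0.65 ± 0.13. Of 15 tested sensing genes 5 fell and 1, IFI16, rose. Beside this and the next counts, 16.3% of all tested genes fell and 21.2% rose. Of 38 tested interferon effector genes 20 fell and 1 rose, ISG20, and the median change was -0.26. Of the 38, 16 had both alpha libraries below all 8 libraries without PRDM1 overexpression, a place held by 13.5% of all tested genes. GBP3, an interferon-induced GTPase, stood at 1.95 and 1.98 CPM with alpha and 8.97 and 9.92 CPM with GFP. APOL2, an apolipoprotein L, stood at 11.4 and 12.5 CPM with alpha and 32.6 and 32.6 CPM with GFP and fell by 1.45 ± 0.08. The fall did not reach every effector: the abundant antiviral genes MX1, at 65.9 and 69.5 CPM with alpha and 63.5 and 64.8 CPM with GFP, and BST2, at 185 and 190.1 CPM with alpha and 180.3 and 182 CPM with GFP, did not pass. Another 21 listed effectors were too low to test, and IFNB1 and IFNL1 had 0 counts in the 4 libraries. Upstream, of 24 interferon receptor and factor genes 6 fell and 3 rose. USP18, which switches the type I receptor off, fell by 0.95 ± 0.11, and STAT3 rose by 0.37. ISG20 did not pass without GFP replicate 1 (0.43), where 2 sensing genes rose, without alpha replicate 2 (0.39) or by the DESeq2 Wald test (0.53). Without alpha replicate 1 there were 2 receptor and factor genes that fell. Against wild type 2 sensing genes, 4 effectors and 6 receptor and factor genes rose.

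Of 27 tested genes of the MHC class I pathway 13 fell and 7 rose, with a median of -0.09, or -0.15 against wild type. These were 48.1% and 25.9%, where 16.3% of all tested genes fell and 21.2% rose, so the share that rose was near that of all genes. The falls cover peptide production, trimming and loading. The immunoproteasome subunit PSMB9 stood at 1.32 and 1.74 CPM with alpha and 5.15 and 5.82 CPM with GFP. The peptide-trimming peptidase ERAP2 stood at 13.4 and 12.4 CPM with alpha and 43.4 and 43.7 CPM with GFP, and fell by 1.74 ± 0.08 (adjusted p = 5.53e-27). The proteasome activator subunits PSME2 and PSME1 fell by 1.21 ± 0.05 and 0.75 ± 0.05. All of these lay below every library without PRDM1 overexpression. TAPBP (tapasin), which holds empty class I molecules at the peptide transporter, stood at 30.2 and 30.6 CPM with alpha and 62.1 and 58.3 CPM with GFP and fell by 0.98 ± 0.06. The transporter genes moved less, TAP1 falling by 0.46 ± 0.05 and TAP2 by 0.09 ± 0.04. The light chain gene B2M stood at 424 and 447 CPM with alpha and 573 and 589.6 CPM with GFP and fell by 0.41 ± 0.03. Heavy chains went both ways, since HLA-B fell by 0.29 while HLA-E rose by 0.36, or 0.21 against wild type. Heavy chain genes are near-identical in part, and how shared reads were assigned is not given in the sources used here. Of 37 proteasome subunit genes 18 fell and 4 rose, PSMC4 the most at 0.66. The lists overlap, since PSMB9 counts in this one, in the class I list and among the interferon effectors. TAP2 passed without GFP replicate 2 but not without any one of the other 3 libraries (-0.08 to -0.11), and without alpha replicate 2 there were 11 proteasome genes that fell. With the GC trend removed 7 proteasome genes rose.

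**Figure D3:**
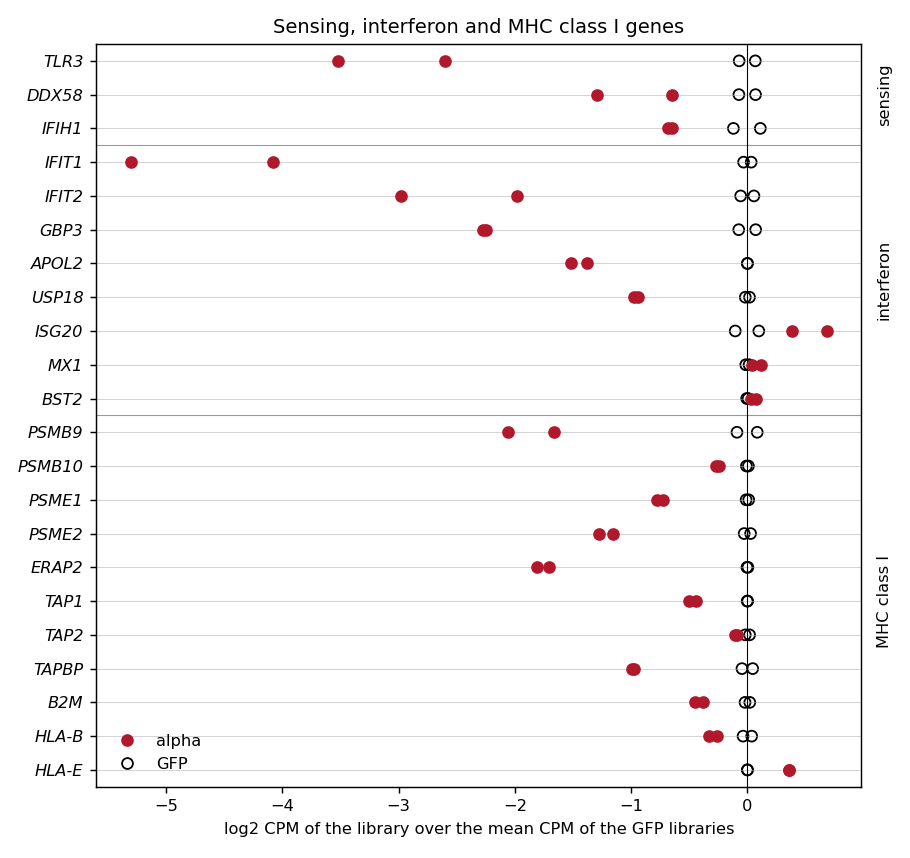
Log2 ratio of each library's CPM to the mean CPM of the 2 GFP libraries for sensing, interferon and MHC class I genes (horizontal axis); filled circles are the 2 alpha libraries and open circles the 2 GFP libraries, and 0 marks the GFP mean. IFIT1 lies farthest left, while ISG20 and HLA-E lie to the right of 0.

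The promoters of these genes are shown because a match to a PRDM1 motif falls at or near the annotated start of several. The motif searched was AGNGAAAG on both strands, and beside it the core of the interferon-stimulated response element (ISRE), a pair of GAAA repeats with 2 other bases of any kind between them, which can overlap it. The sequences come from the RefSeq promoter table on build GRCh38.p14. They run 5′ to 3′ on the strand of the gene, from 80 bases before the start to 20 bases from it on, and capitals mark a match to either motif.
TLR3: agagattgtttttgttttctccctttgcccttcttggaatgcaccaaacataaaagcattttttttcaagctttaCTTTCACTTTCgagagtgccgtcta
GBP3: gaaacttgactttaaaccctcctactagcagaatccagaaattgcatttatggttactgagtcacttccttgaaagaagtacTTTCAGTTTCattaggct
PSME2: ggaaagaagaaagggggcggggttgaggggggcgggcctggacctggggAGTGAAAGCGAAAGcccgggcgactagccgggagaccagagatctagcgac
TAPBP: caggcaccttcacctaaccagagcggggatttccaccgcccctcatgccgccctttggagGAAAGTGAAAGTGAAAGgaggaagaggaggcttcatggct
PSME1: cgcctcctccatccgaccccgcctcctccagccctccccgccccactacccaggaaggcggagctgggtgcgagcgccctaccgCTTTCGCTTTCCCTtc
PSMB10: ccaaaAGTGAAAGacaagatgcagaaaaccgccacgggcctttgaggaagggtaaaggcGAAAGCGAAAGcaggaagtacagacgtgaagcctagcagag
TAP2: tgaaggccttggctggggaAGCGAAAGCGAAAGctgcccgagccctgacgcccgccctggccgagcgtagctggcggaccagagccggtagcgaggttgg
In TLR3, at chr4:186069076-186069175, the match covers the annotated start, and in GBP3, at chr1:89022847-89022946, only the second motif is found, just after it. In PSME2 (chr14:24146591-24146690), TAPBP (chr6:33314059-33314158) and PSMB10 (chr16:67936831-67936930) the motifs overlap just before the start, and in PSME1 (chr14:24136114-24136213) they follow it. TAP2 (chr6:32838720-32838819) has overlapping matches of both as well, farther from its start, and its change was -0.09. PSMB10 fell by 0.25, but did not pass without any one of the 4 libraries (between -0.23 and -0.26) or by the DESeq2 Wald test (-0.26). Of the 13 class I pathway genes that fell all have a promoter in the table, and over the full 300 bases 5 hold AGNGAAAG and 7 hold the ISRE core. Among the 20 interferon effectors that fell 17 have one, of which 1 and 12 hold the motifs. Of all 35116 promoters listed there 7.99% hold the first and 3.57% the second. These include promoters of genes that were not tested here, so they are not a like background for the tested genes. Of the 2093 genes that fell with alpha, 1689 have a promoter in the table, and 10.7% of these hold AGNGAAAG and 4.44% hold the ISRE core. Of the 2729 that rose, 2217 have one, with 5.23% and 1.89%. No share was taken for the class I genes and interferon effectors that rose or did not pass. The matches therefore cannot be tied to the falls. A match describes letters and does not show binding. For the genes changed at least 2-fold fewer than 80% have a promoter in the table (160 of 221 that rose and 96 of 139 that fell), so that check is void and no share is given.

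The falls outside immunity were led by FAM198B, a Golgi kinase-like protein, at 1.78 and 1.34 CPM with alpha and 28.4 and 29.95 CPM with GFP. Its level also differed widely among the cells without overexpression, from 0.666 to 95.7 CPM, so that the alpha libraries did not lie outside that range. PDE7B, a phosphodiesterase of cyclic AMP, stood at 24.4 and 23.7 CPM with alpha and 118 and 121 CPM with GFP, a fall of 2.31 ± 0.06. MYOF (myoferlin), which acts in membrane repair, stood at 82.2 and 83.4 CPM with alpha and 314 and 316 CPM with GFP, and fell by 1.92 ± 0.04. ANXA1, an annexin that binds membranes and dampens inflammation, stood at 456 and 458 CPM with alpha and 1007 and 1052 CPM with GFP. Both lay below all 8 libraries without PRDM1 overexpression. The KIT receptor's ligand KITLG fell by 1.91 ± 0.08, and the microtubule-associated MAP1B by 2.08 ± 0.11. NNMT, which methylates nicotinamide, fell by 1.99 ± 0.08, though it was also low in both knockout derivatives and was not below all 8. Neighbouring genes fell together at places on the map: RRP15, a ribosome biogenesis factor, and LYPLAL1 on chromosome 1 stood at 53.2 and 52.8 and 20.4 and 21.7 CPM with alpha, against 191 and 191 and 76.8 and 76.2 CPM with GFP. On chromosome 18 ZSCAN30 and the pseudogene ZNF271P had changes of -1.87 and -1.85 and both fell.

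By amount of RNA, the largest gains were of SLC2A3, a glucose transporter, which stood at 1369.7 and 1428 CPM with alpha and 537 and 544 CPM with GFP, and of NPC2, which carries cholesterol out of lysosomes, at 1163 and 1189 CPM with alpha and 545 and 561 CPM with GFP. Both rose, by 1.38 ± 0.03 and 1.10 ± 0.03. SLC2A3 shares near-identical sequence with SLC2A14, which rose by 1.39, and how shared reads were counted is not given in the sources used here. The ferritin light chain FTL rose by 0.35, the actin gene ACTG1 by 0.25 (0.14 against wild type), the receptor phosphatase PTPRF by 0.73 and the receptor kinase AXL by 0.87. The largest losses were of the elongation factor EEF1A1, at 18901 and 19079 CPM with alpha and 21360.4 and 22141 CPM with GFP, and of PABPC1, the cytoplasmic poly(A)-binding protein, at 2478 and 2505 CPM with alpha and 3557 and 3764 CPM with GFP. The second fell by 0.55 ± 0.03. The glycolytic genes GAPDH and ENO1 fell by 0.27 and 0.24. These abundant genes changed far less in fold than the leading genes above.

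Among genes of growth and division the lists differed in which direction was the more frequent. Of all tested genes 21.2% rose and 16.3% fell. Of 79 cytoplasmic ribosomal protein genes 44 fell and 4 rose, with a median of -0.09, and 42 lay below all 8 libraries without PRDM1 overexpression, beside the 13.5% of all tested genes that did. RPL39 stood at 666 and 672 CPM with alpha and 797 and 790.4 CPM with GFP and fell by 0.24 on the log2 scale. Of 52 mitosis genes 25 fell and 4 rose, with a median of -0.10. CKS2, a partner of cyclin-dependent kinases, fell by 0.26 ± 0.04 and the condensin subunit NCAPD2 by 0.26 ± 0.03, while CDC25B, which activates the mitotic kinase, rose by 0.30, or 0.15 against wild type. Of 40 DNA replication genes 13 fell and 6 rose: the sliding clamp PCNA fell by 0.29 ± 0.03 and thymidylate synthase TYMS by 0.40, and the ribonucleotide reductase subunit RRM2 rose by 0.46 ± 0.03. Of 21 G1 regulators 8 rose and 6 fell. CDKN1A (p21), an inhibitor of cyclin-dependent kinases, stood at 111 and 108 CPM with alpha and 66.9 and 68.8 CPM with GFP and rose by 0.69 ± 0.04. CDKN2B (p15), another inhibitor, fell by 0.95 ± 0.09, and among the cyclins CCND2 rose by 0.53 and CCND1 fell by 0.18. Of 28 p53 target genes 10 rose and 7 fell with a median of -0.01, or 0.03 against wild type. PMAIP1 (NOXA), which promotes apoptosis, stood apart at 200.2 and 212 CPM with alpha and 25.4 and 22.6 CPM with GFP, a rise of 3.11 ± 0.05 (adjusted p = 6.61e-43), while MDM2 stood at 345 and 349 CPM with alpha and 349 and 332 CPM with GFP and did not pass. Of 78 nuclear OXPHOS subunit genes 19 fell and 7 rose, and of 44 ribosome biogenesis genes 11 rose and 4 fell. Without alpha replicate 1 there were 16 mitosis and 12 OXPHOS genes that fell and 5 ribosome biogenesis genes that rose. Without GFP replicate 2 the rises were 6 for p53 targets and for ribosome biogenesis, 2 for mitosis and for replication, and 1 for ribosomal proteins. Without alpha replicate 2 they were 5 for p53 targets and 2 for replication, and without GFP replicate 1 there were 8 ribosome biogenesis genes that fell. The count of mitosis rises was also 2 without alpha replicate 1, and that of ribosomal protein rises 2 without alpha replicate 1 and 1 without alpha replicate 2. Against wild type there were 9 mitosis, 3 replication and 2 ribosomal protein genes that rose, and by the DESeq2 Wald test 6 p53 targets, 6 ribosome biogenesis genes and 3 OXPHOS genes did.

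**Figure D4:**
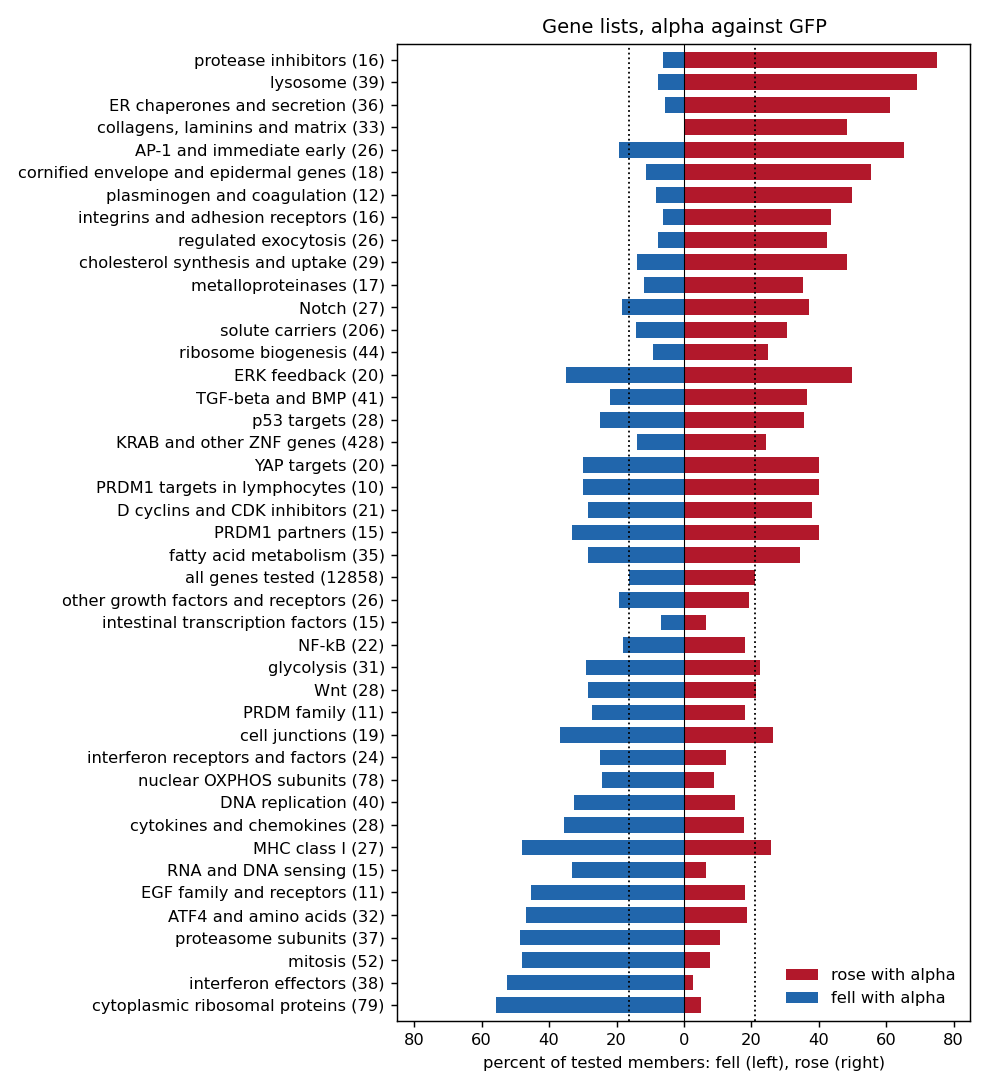
Share of the tested members of each gene list with at least 10 tested members that rose (bars to the right) or fell (bars to the left) with alpha against GFP, in percent of the members tested, with the number tested in brackets; dotted lines mark the share of all 12858 genes, 21.2% higher and 16.3% lower. Protease inhibitors and lysosome genes reach farthest to the right (12 of 16 and 27 of 39), and ribosomal proteins and interferon effectors farthest to the left (44 of 79 and 20 of 38).

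Many genes of the secretory pathway and the lysosome rose, where 21.2% of all tested genes rose and 16.3% fell. Of 36 ER chaperone and secretion genes 22 rose and 2 fell, with a median of 0.15. CRELD2, a stress-induced ER protein, stood at 36.2 and 34.3 CPM with alpha and 24.3 and 21.99 CPM with GFP, and HERPUD1, which serves ER-associated degradation, rose by 0.38 ± 0.05. The abundant chaperone gene HSPA5 (BiP) stood at 1556 and 1532 CPM with alpha and 1548 and 1587 CPM with GFP and did not pass, and neither did XBP1, a factor that expands the ER in plasma cells, at 80.5 and 72.7 CPM with alpha and 70.98 and 72.7 CPM with GFP. Of 39 lysosome genes 27 rose and 3 fell, with a median of 0.19. The protease gene CTSD stood at 211 and 219 CPM with alpha and 177 and 166 CPM with GFP and rose by 0.34 ± 0.04. The membrane protein gene LAMP1 rose by 0.30 and the proton pump subunit ATP6V0A1 by 0.40. Small rises in many members thus made up these counts. Of 26 regulated exocytosis genes 11 rose and 2 fell. SCG2 (secretogranin), a granule protein, stood at 6.58 and 8.48 CPM with alpha and 0.6296 and 0.7997 CPM with GFP and rose by 3.38 ± 0.26. SYTL3, a binding partner of RAB27, rose by 1.32 ± 0.11, and SYTL4, another, fell by 0.73 ± 0.11. Without GFP replicate 1 there was 1 ER gene that fell, and against wild type 5 exocytosis genes fell. Against wild type the change of CTSD was 0.10, and with the GC trend removed it was 0.21.

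Of 26 AP-1 and immediate early genes 17 rose and 5 fell, with a median of 0.31, where 21.2% of all tested genes rose and 16.3% fell. The AP-1 subunit FOSL1 stood at 163 and 171 CPM with alpha and 104 and 106 CPM with GFP and rose by 0.67 ± 0.04, and JUNB rose by 0.73 ± 0.09. FOSL2, another subunit, fell by 0.60 ± 0.07. Of 20 genes of ERK feedback 10 rose and 7 fell. IER3 and the phosphatase DUSP5 rose by 1.30 and 1.09, while the inhibitor SPRY2 and the factor ETV1, both also targets of the pathway, fell by 1.09 and 1.33. Feedback genes therefore moved in both directions. Of 41 genes of TGF-beta and BMP signalling 15 rose and 9 fell. SMAD3, which carries the TGF-beta signal, stood at 48.4 and 45.8 CPM with alpha and 101 and 99.1 CPM with GFP and fell by 1.08 ± 0.05. ID3, an inhibitor of helix-loop-helix factors, fell by 1.11 ± 0.05, while the SMAD repressor SKIL rose by 0.97 ± 0.07. JAG1, a Notch ligand, stood at 117 and 117 CPM with alpha and 323 and 337 CPM with GFP and fell by 1.49 ± 0.04, whereas of 27 Notch genes 10 rose and 5 fell. Of 28 Wnt genes 6 rose and 8 fell, and AXIN2, a feedback inhibitor and usual readout of the pathway, stood at 43.9 and 46.9 CPM with alpha and 91.7 and 90.4 CPM with GFP, a fall of 1.00 ± 0.05. Without GFP replicate 2 there were 6 Notch and 3 Wnt genes that rose and 3 AP-1 genes that fell. The last count was also 3 without alpha replicate 2, and without GFP replicate 1 there were 5 Wnt genes that fell. With the GC trend removed 6 Notch genes rose. Against wild type the change of JUNB was 0.41.

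Of 11 EGF family genes 5 fell and 2 rose. Beside the counts given here, 21.2% of all tested genes rose and 16.3% fell. The feedback inhibitor ERRFI1 rose by 0.79 ± 0.04 and the receptor ERBB2 fell by 0.29 ± 0.04. Of 28 cytokine genes and their receptors 10 fell and 5 rose: IL15RA, the receptor chain that presents IL-15, fell by 1.09 ± 0.13 and LIF by 0.83 ± 0.09. CD274 (PD-L1), which inhibits T cells, stood at 13.1 and 12.5 CPM with alpha and 6.96 and 7.23 CPM with GFP and rose by 0.86 ± 0.11. Of 22 NF-kB genes 4 rose and 4 fell, 18.2% each and so near the shares of all genes. BIRC3, an inhibitor of apoptosis, fell by 1.43. Of 26 other growth factor genes and their receptors 5 rose and 5 fell, 19.2% each and also near those shares. Of 20 YAP targets 8 rose and 6 fell. Of 6 EMT genes 2 rose, among them SNAI2 (SLUG), which stood at 5.98 and 4.96 CPM with alpha and 0.6296 and 0.909 CPM with GFP. Of 19 cell junction genes 7 fell and 5 rose, and the plakophilin PKP2 fell by 0.61. Of 4 MHC class II genes 1 rose. Without alpha replicate 1 there were 6 cytokine genes that fell, and without it or without GFP replicate 2 there was 1 EGF family gene that rose, as by the DESeq2 Wald test. Against wild type 7 NF-kB genes, 11 other growth factor genes and 1 EMT gene fell. Against wild type the change of BIRC3 was -0.92.

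Metabolic genes moved in both directions, where 21.2% of all tested genes rose and 16.3% fell. Of 29 cholesterol genes 14 rose and 4 fell: HMGCS1, an early enzyme of the mevalonate pathway, stood at 210.1 and 229 CPM with alpha and 125 and 134 CPM with GFP, and IDI1 rose by 0.60 ± 0.04. Both enzymes thus rose. Of 35 fatty acid genes 12 rose and 10 fell, with MGLL, a monoglyceride lipase, rising by 1.86 ± 0.08. Of 31 glycolysis genes 9 fell and 7 rose, and the phosphofructokinase PFKP rose by 0.65. Of 32 ATF4 and amino acid genes 15 fell and 6 rose: the cystine transporter SLC7A11 fell by 0.97 ± 0.07 and asparagine synthetase ASNS by 0.60 ± 0.04, while the stress factor DDIT3 (CHOP) rose by 0.63 ± 0.07. Of 206 solute carrier genes 63 rose and 29 fell, and the glutamate transporter SLC1A3 fell by 1.31 ± 0.05. Without GFP replicate 2 there were 40 solute carrier genes and 3 ATF4 and amino acid genes that rose, and without alpha replicate 1 or alpha replicate 2 there were 6 fatty acid genes that fell. Against wild type 16 glycolysis genes fell.

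Corepressors and enzymes that work with PRDM1 were expressed in both groups. For the counts of the short lists that follow, the shares over all tested genes were 21.2% higher and 16.3% lower. Of 15 such genes 6 rose and 5 fell, and their median change was 0.00, or -0.05 with the GC trend removed and -0.07 against wild type. TLE1, a Groucho family corepressor, stood at 32.04 and 30.6 CPM with alpha and 16.2 and 16.1 CPM with GFP and rose by 0.97 ± 0.07, and HDAC1 fell by 0.16 ± 0.04. Of 10 tested genes that PRDM1 is known to repress in lymphocytes 3 fell and 4 rose. MYC, the classical target in B cells, stood at 309 and 314 CPM with alpha and 324 and 344 CPM with GFP and fell by 0.09 ± 0.03, and ETS1 rose by 0.86 ± 0.07. PAX5 had 0 counts with alpha and 2 with GFP, and CIITA had 0 in all 4 libraries. Of 11 PR domain genes, PRDM1 itself included, 2 rose and 3 fell. MECOM (EVI1), another member, stood at 9.63 and 9.77 CPM with alpha and 25.7 and 24.03 CPM with GFP and fell by 1.35 ± 0.09. Of 8 plasma cell markers 5 stayed under 1 CPM in all 4 libraries, and the 8 summed to 185 and 179 CPM with alpha and 183 and 176 CPM with GFP, with SDC1 and XBP1 making up most of the sum. SLAMF7, a surface receptor among them, stood at 2.12 and 1.88 CPM with alpha and 0.197 and 0.0727 CPM with GFP, and rose by 3.89 ± 0.60. MYC did not pass without alpha replicate 1, alpha replicate 2 or GFP replicate 2, with changes of -0.09, -0.10 and -0.06, and against wild type its change was -0.16. PRDM1 was the 1 PR domain gene that rose without alpha replicate 1, GFP replicate 1 or GFP replicate 2, and by the DESeq2 Wald test.

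Zinc finger genes of chromosome 19 included stretches of neighbours that rose and others that fell. Of 203 tested genes with a ZNF symbol there 65 rose (32.0%) and 25 fell (12.3%), and 21 rose at least 2-fold. Of 225 ZNF genes elsewhere 39 rose (17.3%) and 34 fell (15.1%), and 1 rose at least 2-fold. Such genes mostly encode KRAB zinc finger repressors, many of which silence transposable elements. Of the 65 rises 60 were also called higher against wild type, and 64 genes rose when a trend along GC content was removed. Of the 742 remaining chromosome 19 genes a like share rose, 240 of them (32.3%), of which 97 were also called higher against wild type, and 136 genes rose with the GC trend removed. ZNF471 stood at 17.5 and 18.1 CPM with alpha and 6.61 and 6.65 CPM with GFP, and its neighbour ZFP28 at 55.6 and 56.5 CPM with alpha and 27.7 and 25.7 CPM with GFP. Together with ZNF582, ZNF583, ZNF470 and ZNF71 they form a run of 6 adjacent tested genes that rose at least 2-fold, and in each both alpha libraries lay above all 8 libraries without PRDM1 overexpression. ZNF420 rose by 1.47 ± 0.04 and ZNF260 by 1.09 ± 0.04 in other stretches. Falls also lay together: in a stretch of 23 tested genes, chosen after its values were seen, 14 of 22 ZNF genes fell and 0 rose, which is 14 of the 25 falls. Of these 14, 7 were also called lower against wild type, 7 by the DESeq2 Wald test, and between 7 and 9 with 1 library left out. In that stretch ZNF702P, a pseudogene, stood at 15.4 and 14.9 CPM with alpha and 43.9 and 44.97 CPM with GFP and fell by 1.54 ± 0.07. Away from the zinc finger genes, PSG3, PSG8, PSG4 and PSG9, pregnancy-specific glycoprotein genes that are adjacent and near-identical in sequence, rose from 1, 1, 0 and 4 counts in the GFP libraries together, and PSG3, the highest of them, stood at 0.552 and 0.744 CPM with alpha and 0.0393 and 0 CPM with GFP. PSG8 did not pass without GFP replicate 2 (2.80) or by the DESeq2 Wald test (3.98), nor did PSG4 without it or without alpha replicate 1 (5.53 and 5.26). Zinc finger genes also resemble each other in sequence, and how reads shared among them were counted is not given in the sources used here.

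**Figure D5:**
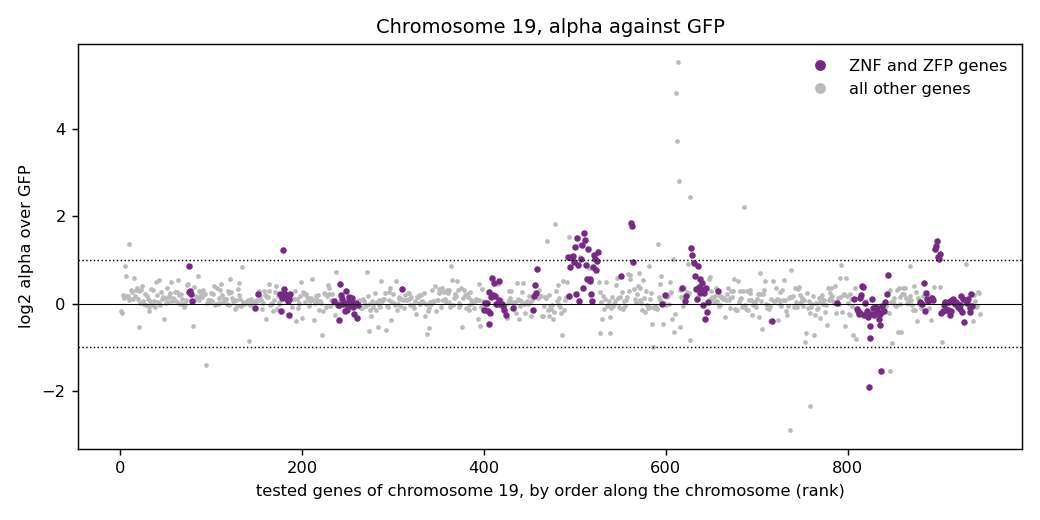
Log2 change, alpha over GFP (vertical axis), of the tested genes of chromosome 19 in their order along the chromosome (horizontal axis, rank, not distance), with ZNF and ZFP genes coloured and all other genes grey. Among the ZNF genes 21 reach at least 2-fold higher and 2 at least 2-fold lower, and both kinds of change stand in stretches of neighbours, with 14 of the 25 falls between ranks 818 and 840; the grey points at the top are the PSG genes.

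Both overexpressed forms are set against the same GFP libraries, so the difference between alpha and beta was tested directly. PRDM1 counts stood at 487 and 480.1 CPM with alpha and 1175 and 1176 CPM with beta, so the groups differ in the amount of transcript as well as in its form, and the effects of amount and form cannot be told apart. With alpha 443 genes were higher (3.45%) and 359 lower (2.79%) than with beta. Of the 221 genes at least 2-fold higher with alpha than with GFP, 82 were also higher and 19 lower than with beta. Of the 139 at least 2-fold lower, 37 were higher than with beta and 5 lower. MMP3 was among the rises that were larger with alpha, at 68.3 and 69.9 CPM against 9.81 and 8.56 CPM with beta. RAB27B stood at 15.02 and 15.4 CPM with alpha and 3.04 and 4.18 CPM with beta. TLR3 had fallen further with beta, where it stood at 0 and 0.207 CPM against 1.32 and 0.694 CPM with alpha. Likewise GBP3 stood at 1.95 and 1.98 CPM with alpha and 0.2099 and 0.2896 CPM with beta, and JAG1 at 117 and 117 CPM with alpha and 30.6 and 29.04 CPM with beta. SCG2 was a rise that was smaller with alpha, at 6.58 and 8.48 CPM with alpha and 21.3 and 22.6 CPM with beta. Among the chromosome 19 zinc finger genes 55 were higher and 1 lower with alpha than with beta. ZNF471 stood at 7.24 and 9.43 CPM with beta, much nearer to its GFP level than to its alpha level. With any 1 of the alpha and beta libraries left out, between 250 and 288 genes were higher and between 145 and 211 lower with alpha than with beta.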

How the data were processed

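RNA was read from 12 libraries of RKO cells, 2 in each of 6 groups, with a stranded library kit per the labels' protocols. The authors deposited counts of reads per gene symbol, 1 table per library. TopHat, Bowtie2, Cufflinks and build hg19 are named in the submitters' processing notes, and the counter and its use of strand are not given in the sources used here. Rows without a gene were left out (9.13% to 10.8% of all counts without a feature and 1.66% to 1.75% ambiguous). Gene counts per library ran from 19058967 to 55961821, and CPM is the count per 1000000 of these. With R 4.3.3, edgeR 4.0.16 was fitted to all 12 libraries (filterByExpr, TMM, robust quasi-likelihood), so that the 6 groups share 1 estimate of the spread, and a gene was called at an adjusted p under 0.05. Standard errors are Wald errors from the fitted dispersion, and count intervals and the floor of 3 counts cover counting error only. DESeq2 1.42.0, other scalings and filters, a GC correction, a replicate block, wild type as the control and leaving out each library in turn were tried as alternatives. The authors' deposited comparison tables were not used here. Replicates with the same number did not deviate together (r of -0.0655 to 0.0564 over 15 pairs of groups), so the numbers were not taken to pair the libraries.

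The members and gene lists were chosen with earlier results of these data known. Named genes follow a rule: the 15 largest rises and falls at 5 CPM or more without overlap between alpha and GFP, the 8 largest each way by difference in CPM, up to 4 per list, and the 8 largest alpha and beta differences each way. The text gives 124 of these, and another 53 genes in it, such as genes known from the pathway or lying beside a named gene, were chosen after their values were seen. Some genes of the lists are not reported here. Promoter sequences are from RefSeq (GRCh38.p14), matched by symbol. GC content was taken from the longest annotated transcript, known for 97.55% of the genes tested.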

Additional observations from a re-analysis of the deposited data

Results flagged for a closer look

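The size of the change differed between alpha and beta for the genes below, by the direct test of alpha minus beta (edgeR's quasi-likelihood test, Benjamini-Hochberg adjustment, n = 2 libraries each). Both forms share the GFP libraries, and the amount of PRDM1 transcript also differed, so that form and amount cannot be told apart. Among rises, MMP3 was 2.92 higher on the log2 scale with alpha than with beta, RAB27B 2.05 and MMP1 2.05. Among falls, which were smaller with alpha than with beta, TLR3 was 3.11 higher with alpha than with beta, GBP3 2.93, JAG1 1.97, NAV3 1.96 and ADAMTSL1 1.92. The opposite difference was found for rises that were smaller with alpha: SCG2 was lower with alpha than with beta at -1.56, GPRC5A, a retinoic acid-induced receptor, at -1.41, ID2 at -0.94, CYP24A1, which degrades vitamin D, at -0.72, GPNMB at -0.71 and the bombesin receptor gene GRPR at -0.69. CDKN2B and ZNF114 fell with alpha against GFP and were also lower with alpha than with beta, at -0.82 and -0.54. Against wild type in place of GFP the changes with alpha were -0.18 for ZNF114, which did not pass, -0.16 for NAV3 and 0.69 for ID2. With 2 libraries a group no library could be tested for standing apart from the others of its group.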

How the results depend on the processing

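The counts against GFP kept within 1.5 times of their value under the alternatives tried, except under a test against 1.5-fold (glmTreat), which gave 232 higher and 128 lower in place of 2729 and 2093, and 88 in place of 139 at least 2-fold lower. By construction that test asks for larger changes. With 1 library left out, between 1943 and 2426 genes were higher and 1521 and 1797 lower, and 207 to 237 and 133 to 147 of them at least 2-fold. Against beta the counts were less stable: 443 higher and 359 lower became 274 and 152 by the DESeq2 Wald test and 53 and 6 by glmTreat, and with 1 library left out 250 to 288 and 145 to 211. The cause was not tested. With the replicate block there were 2701 higher and 2060 lower against GFP and 432 and 343 against beta, and none of the 170 called genes in the text lost its call. With DESeq2 size factors the split against GFP was 2560 and 2227, and with the GC trend removed 2406 and 2246. Of the 170 called genes 158 kept their call and direction under every alternative run for single genes, and 11 lost the call with 1 library left out. HSPA5, which did not pass against GFP, was 0.10 higher against wild type. Of 1260 list counts 169 moved by over 1.5 times, 83 of them under glmTreat.

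With 2 libraries a group, the spread is shared over all 6 groups, with a common coefficient of variation beyond counting error of 2.18%. The groups were not equally tight: the chi-square per degree of freedom between the 2 libraries was 2.77 for GFP, 1.73 for alpha and 1.68 for beta. The shared estimate may thus understate the spread of the GFP libraries. Fitted to the alpha and GFP libraries only, 2283 genes were higher and 2127 lower with alpha. For a lone library in a left-out fit the same spread is assumed. Genes under about 0.1 CPM are at the floor of 3 counts, and their changes depend on single reads.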
